A study of Mus musculus with 6 samples.

Results

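Tgm2, the gene for tissue transglutaminase, is 1 gene of the 56691 in the deposited table, found there by its symbol (ENSMUSG00000037820, chromosome 2, 157958322 to 157988356, minus strand, GRCm39). It was chosen by its measured difference in read counts between the 2 hydrogels of the study, so its own counts, levels and ranks are given as a description, with no test. The 6 libraries are RNA sequencing of wild-type mouse macrophages of a line spelled RAW246.7 in the labels. All cells had been pretreated with lipopolysaccharide (LPS), which bacteria carry in their outer membrane and macrophages sense, and were then kept for 24 h on MSA-ZW hydrogels (3 libraries) or on MSA-DA hydrogels (3 libraries). No library without LPS or without a gel was analysed here, so the values compare the gels with each other. The series title asks how fibrin networks formed by macroporous hydrogels that absorb protein to different degrees affect macrophage function. Count totals per library ran from 14374912 to 18346615. No label ties the libraries of a gel to separate cultures, and the p-values reflect how much these samples vary among themselves, and that variation may be technical.

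Tissue transglutaminase is a calcium-dependent enzyme that joins glutamine and lysine side chains of proteins into bonds that resist proteolysis. It also binds GTP, which holds it in a form without crosslinking activity, and inside the cell it can act as a signalling G protein. At the macrophage surface and in the matrix it binds fibronectin and integrins, takes part in adhesion, and helps phagocytes take up apoptotic cells. The related plasma enzyme factor XIII crosslinks fibrin during clotting, and fibrin and fibronectin are substrates of tissue transglutaminase too.

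Every MSA-DA library held fewer Tgm2 reads than every MSA-ZW library. Tgm2 had 1778, 1639 and 1873 counts in MSA-ZW replicates 1, 2 and 3, and 413, 479 and 444 counts in MSA-DA replicates 1, 2 and 3. Scaled to library size as counts per 1000000 (CPM), this was 107, 100.3 and 103 CPM on MSA-ZW and 28.9, 26.2 and 28.2 CPM on MSA-DA. The groups did not overlap: the lowest MSA-ZW library lay 71.5 CPM above the highest MSA-DA library, while the range within a gel was 7.14 CPM on MSA-ZW and 2.66 CPM on MSA-DA. Groups that do not overlap with MSA-DA lower were found in 13.7% of all 12467 tested genes, those with enough reads for the edgeR fit.

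Averaged over libraries, the level of Tgm2 was 27.7 ± 1.38 CPM for MSA-DA and 104 ± 3.63 CPM for MSA-ZW (SD, n = 3). Pairs of CPM values in later paragraphs are likewise the mean ± SD of 3 libraries per gel, with MSA-DA first. The log2 difference (MSA-DA minus MSA-ZW) was -1.90 with a standard error of 0.05, which is 3.74-fold lower on MSA-DA. Taken library by library, the 9 possible ratios of an MSA-ZW to an MSA-DA library ran from 3.48 to 4.10. In the FPKM values the authors deposited, which also divide by the exonic length of 4608 bases, Tgm2 was at 23.39, 21.76 and 22.34 FPKM on MSA-ZW and at 6.23, 5.67 and 6.09 FPKM on MSA-DA. The ratio of the mean FPKM values was 3.75.

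The spread between MSA-DA libraries was close to what counting reads gives by itself. The coefficient of variation of Tgm2 was 4.97% on MSA-DA, where counting error at this depth is 4.74%, and 3.51% on MSA-ZW, where it is 2.38%. The exact Poisson 95% intervals, which cover counting error only, reached 31.8 CPM at most on MSA-DA and 95.5 CPM at least on MSA-ZW.

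**Figure D1:**
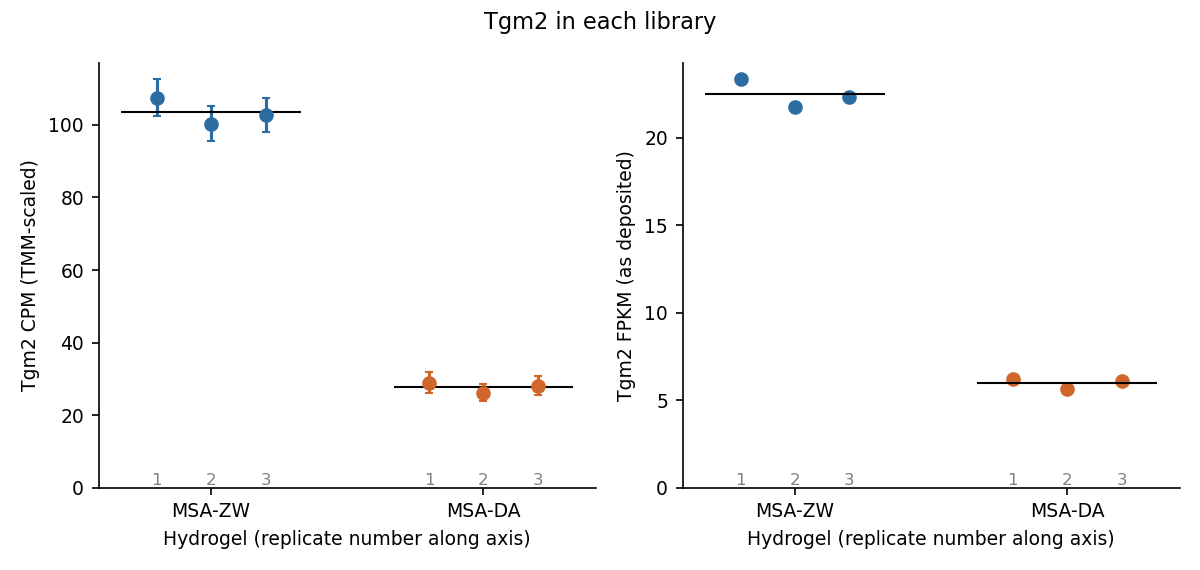
Tgm2 in the 6 libraries, as CPM on TMM-scaled library sizes (left, with exact Poisson 95% intervals for counting error) and as deposited FPKM (right). Points are libraries with the replicate number along the axis, and horizontal lines are group means. The MSA-DA libraries lie at 26.2 to 28.9 CPM and the MSA-ZW libraries at 100.3 to 107 CPM.

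The difference was much the same against 9 common reference genes, a comparison that needs no library scaling. Set against each of Actb, Gapdh, B2m, Hprt, Tbp, Ppia, Ywhaz, Sdha and Pgk1 in turn, Tgm2 was lower on MSA-DA by 3.39-fold (against Actb) to 4.04-fold (against Hprt), and for each of the 9 all MSA-DA ratios lay below all MSA-ZW ratios. These end values come from the members of the list that themselves passed the test, beta-actin at a log2 difference of -0.14 (edgeR adjusted p = 4.88e-06) and the purine salvage enzyme Hprt at 0.11 (edgeR adjusted p = 0.00702).

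As a level, Tgm2 went from among the more abundant transcripts on MSA-ZW to the middle of the range on MSA-DA. On MSA-ZW, 19.5% of tested genes had a higher mean FPKM than Tgm2, and on MSA-DA 51.9% did. The median tested gene stood at 6.50 FPKM on each gel, below the Tgm2 mean of 22.5 ± 0.826 FPKM on MSA-ZW and slightly above its mean of 6.0 ± 0.291 FPKM on MSA-DA (SD, n = 3). Among all genes with at least 1 count in a library, Tgm2 ranked 2331 to 2510 by FPKM in the MSA-ZW libraries and 6380 to 6682 in the MSA-DA libraries. It made up 0.0100% to 0.0108% of all counts on MSA-ZW and 0.00261% to 0.00287% on MSA-DA.

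By the size of its log2 difference Tgm2 ranked 7 of the 12467 tested genes, and 2 of the 8623 with a mean of at least 10 CPM. Of the 6 genes ahead of it in the whole list, 5 had a mean under 4 CPM. Syt16 and Tnnt2, genes of a synaptotagmin and of cardiac troponin T, were among these, with 3 to 4 and 17 to 28 counts per MSA-DA library. The other is AY036118, the only gene of at least 10 CPM ahead of Tgm2, with a log2 difference of -2.13 (SE 0.31). Its libraries disagreed more: it stood at 28.6 ± 20.4 CPM on MSA-ZW, where its counts were 436, 818 and 171, and at 6.46 ± 2.01 CPM on MSA-DA.

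The next genes of that ranking were Lars2 (mitochondrial leucyl-tRNA synthetase) at -1.77, Rn18s-rs5 (annotated as 18S ribosomal RNA) at -1.22 and Pmepa1, an inhibitor of TGF-beta signalling, at -1.21. Lars2 had 8518, 17454 and 4901 counts on MSA-ZW, so it too varied by library. Leaving out each library in turn gave Tgm2 a rank between 1 and 3 among genes of at least 10 CPM, and it ranked 1 without MSA-ZW replicate 2, which held the most counts of AY036118, Lars2 and Rn18s-rs5. In the whole list it then ranked 3. AY036118, Lars2 and Rn18s-rs5 were also left out in the fit without mitochondrial and ribosomal-RNA-like loci, an alternative chosen after seeing the data. In that fit Tgm2 ranked 1 among genes of at least 10 CPM.

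The separation of the libraries can also be given by the ratio of the lowest library on one gel to the highest on the other. For Tgm2 this ratio was 3.48, the largest of the 8623 genes of at least 10 CPM, followed by Pmepa1 at 2.04, the fractalkine receptor gene Cx3cr1 at 1.94 and the chemokine gene Cxcl14 at 1.85. Tgm2 was also first with RLE size factors, with library totals and without each of the 6 libraries, at 3.48 to 3.56. Leaving out a library cannot lower this ratio for any gene, so those settings bear only on the rank. Genes of a lower mean were not ranked by this ratio. The arginase gene Arg1 is such a gene, with 10.7 CPM in its lowest MSA-ZW library and 3.62 CPM in its highest MSA-DA library. Among genes of at least 10 CPM, 7 were at least 2-fold lower on MSA-DA and 1 was at least 2-fold higher. The median absolute log2 difference over all tested genes was 0.089. By the difference in CPM, which favours abundant genes, Tgm2 ranked 70 of 12467, and by the difference in FPKM 137.

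**Figure D2:**
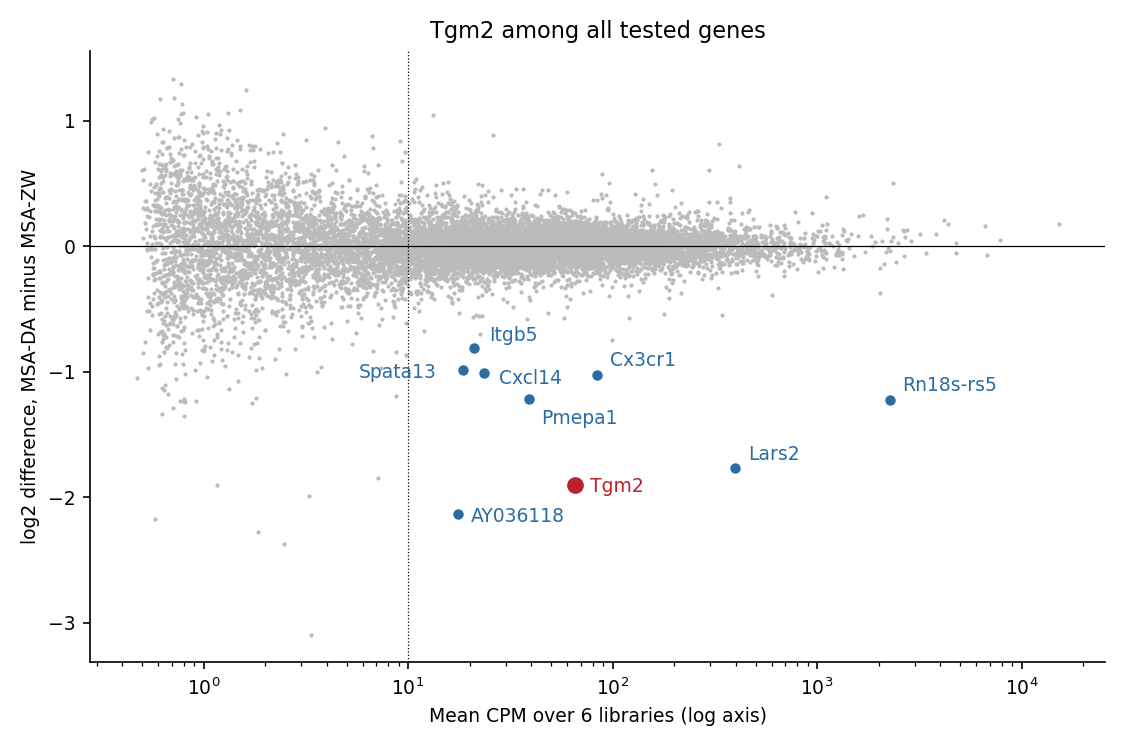
Log2 difference (MSA-DA minus MSA-ZW, edgeR fit) against mean CPM over the 6 libraries on a log axis, for all 12467 tested genes. Named points are Tgm2 (red), the genes next to it in rank and those with the most similar profile (blue). Both sets were taken from genes of at least 10 CPM. The dotted line marks 10 CPM, and only AY036118 lies lower than Tgm2 to the right of it.

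In the listed transglutaminase family, Tgm2 was the only gene with more than a few reads. The 9 other genes of the list were Tgm1 and Tgm3 to Tgm7, the factor XIII subunits F13a1 and F13b, and Epb42. Epb42 is a red cell membrane protein of the same family that has lost the enzyme activity. F13b is listed as the partner subunit of F13a1 and does not carry the deposited gene ontology term for transglutaminase activity. None of these 9 had enough reads to be tested, and 6 of them (Tgm3, Tgm5, Tgm6, Tgm7, F13b and Epb42) had 0 counts in all 6 libraries. A count of 0 allows up to 3 counts in a library, which for these genes is 0.0302 to 0.0967 FPKM depending on length and depth. F13a1, the catalytic subunit of factor XIII and a gene often used as a macrophage marker, had 1 count in total, and Tgm1, the keratinocyte enzyme, had 3.

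Tgm4, the prostate transglutaminase, had 2, 3 and 4 counts on MSA-DA and 1, 1 and 0 on MSA-ZW, or at most 0.06 FPKM, too little to compare. Tgm2 therefore held 99.87% to 99.96% of the family's summed FPKM in the MSA-ZW libraries and 99.0% to 99.3% in the MSA-DA libraries. None of the other listed genes had a deposited value above 0.06 FPKM in any library.

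Around Tgm2 on chromosome 2, no tested gene differed by a similar amount. The start of a gene is taken here as its lower coordinate whatever the strand, which for the minus-strand Tgm2 is where transcription ends. Of 32 genes that start within 500 kb of the start of Tgm2, 6 were tested, 1 was called higher on MSA-DA and 0 lower (edgeR adjusted p below 0.05). Over all tested genes 6.92% were called higher and 6.5% lower, 13.4% in all. DESeq2 also called 0 lower, and at an unadjusted p below 0.05 edgeR had 2 lower, Tti1 and Rprd1b.

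Rprd1b, which encodes a protein that binds the tail of RNA polymerase II, lies on the opposite strand and shares 15896 bases with Tgm2, or 52.9% of the span of Tgm2. It had 783, 1030 and 940 counts on MSA-DA, against 1016, 1014 and 1098 on MSA-ZW, and stood at 56.9 ± 2.51 against 61.2 ± 0.932 CPM, a log2 difference of -0.10 (edgeR adjusted p = 0.155). The sources used here do not give the strand setting, so reads from the shared stretch cannot be told apart. A second gene on that strand inside Tgm2, Gm20412, had 0 counts in every library.

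On the side where Rprd1b starts, Tti1, a cofactor of PI3K-related kinases, stood at a log2 difference of -0.14 (edgeR adjusted p = 0.067, and 0.0428 without MSA-ZW replicate 3) and the predicted gene Gm14176 at -0.21 (edgeR adjusted p = 0.672). On the other side, Snhg17, a host gene of small nucleolar RNAs that starts 237.3 kb away, was 1.23-fold higher on MSA-DA, at 33.1 ± 2.21 against 27.0 ± 2.46 CPM (edgeR adjusted p = 0.00391). Ralgapb, a subunit of a Ral GTPase-activating complex, stood at -0.04 (edgeR adjusted p = 0.516), and Actr5, a subunit of the INO80 chromatin remodeller, at -0.18 (edgeR adjusted p = 0.294). Within 1000 kb, Snhg17 remained the 1 called gene.

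**Figure D3:**
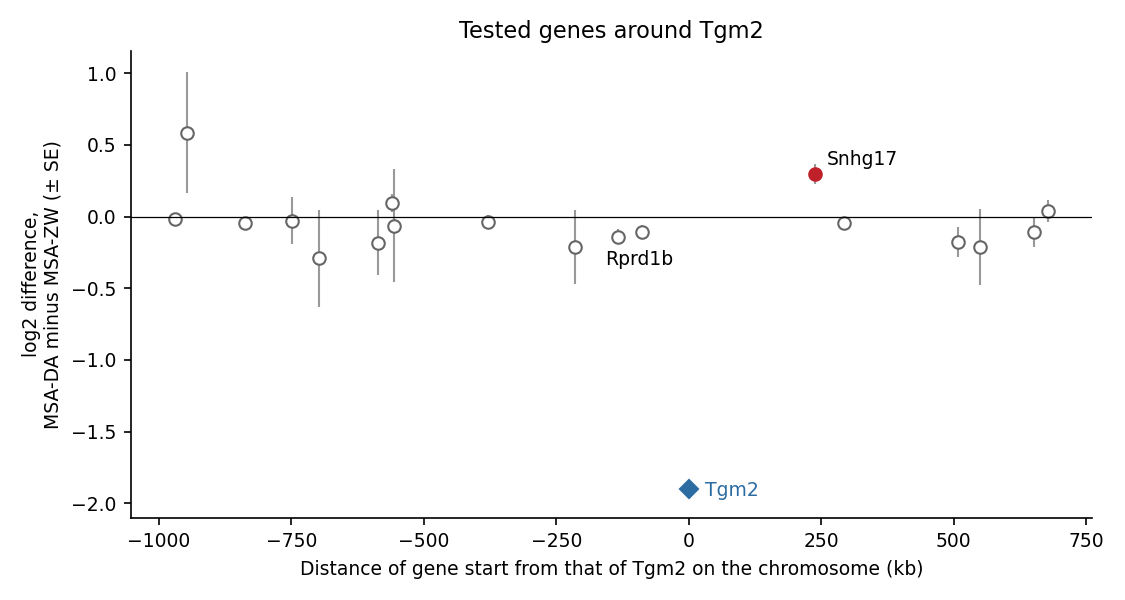
Log2 difference (MSA-DA minus MSA-ZW, with standard error) of every tested gene that starts within 1000 kb of the start of Tgm2, against its distance in kb. Starts are lower coordinates whatever the strand. The filled red point is the 1 gene called at an edgeR adjusted p below 0.05 (Snhg17), open points were not called, and the diamond is Tgm2 at -1.90.

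The genes whose profile over the 6 libraries was most like that of Tgm2 were found by the root mean square difference between log2 CPM profiles, each centred on its own mean. A value of 0 is an identical profile, and the median over the 8622 genes of at least 10 CPM compared was 0.95. Among these, the nearest were Pmepa1 at 0.35, Cx3cr1 at 0.44, Cxcl14 at 0.45 and Spata13 at 0.47. Rn18s-rs5 at 0.48 and the integrin subunit gene Itgb5 at 0.55 followed. The profiles share libraries and depth, and the measure uses the same contrast that chose Tgm2, so the likeness is a description. Genes of a lower mean were not compared, among them the arginase gene Arg1, with a mean of 7.15 CPM and a log2 difference of -1.85.

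Pmepa1 had 322, 400 and 414 counts on MSA-DA, against 893, 874 and 1023 on MSA-ZW. In the same order, Cxcl14 had 231, 274 and 248 counts against 533, 487 and 589, and Spata13 had 169, 222 and 212 against 386, 419 and 456. In each of these the 3 MSA-ZW libraries lay above all MSA-DA libraries, at a smaller distance than for Tgm2. Rn18s-rs5 differed in that MSA-ZW replicate 2, with 73322 counts, stood apart from replicates 1 and 3, with 44364 and 43211, while Tgm2 was lowest in that library among the MSA-ZW libraries.

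**Figure D4:**
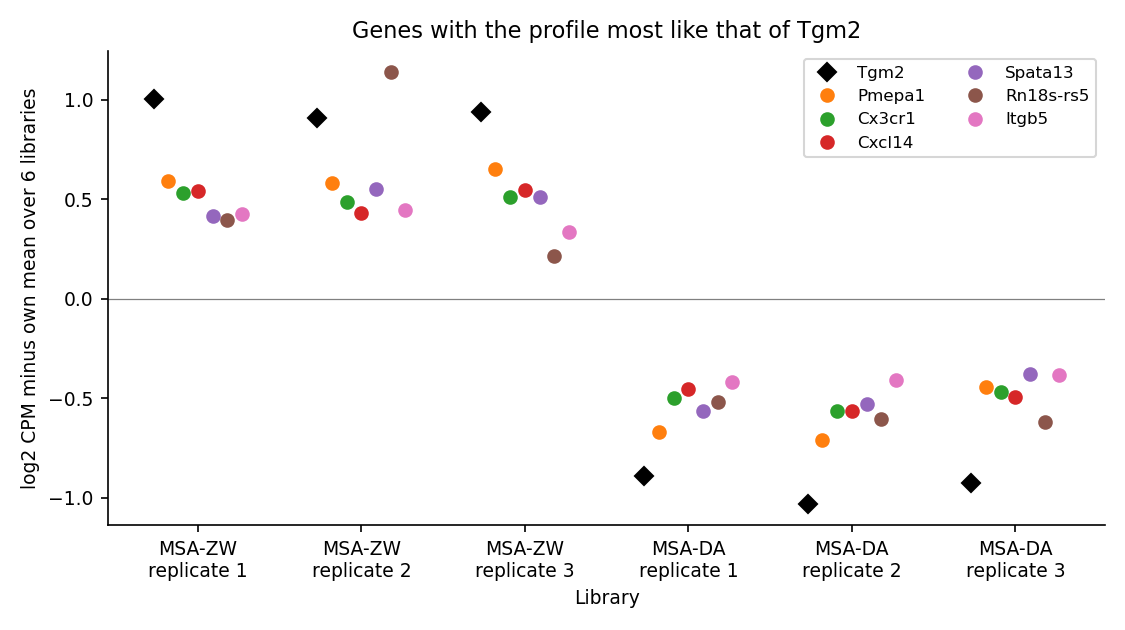
Log2 CPM of Tgm2 (diamonds) and of the 6 genes with the most similar profile among those of at least 10 CPM (circles). Each is shown minus its own mean over the 6 libraries. Tgm2 lies farthest from 0 in every library except MSA-ZW replicate 2, where Rn18s-rs5 is at 1.14 and Tgm2 at 0.91.

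Transcripts of several surface proteins through which tissue transglutaminase acts were also lower on MSA-DA, by much less than Tgm2. Of 11 listed partners 7 were tested, of which 4 fell, 1 rose and 2 did not pass. The share that fell was 57.1%, against 6.5% of all tested genes. This list and those below were drawn up with earlier results of these data known, so their shares are a description. The median log2 difference of the 7 was -0.18, against 0.00085 over all tested genes. Itgb5, an integrin beta subunit that pairs with alpha v, had 217, 279 and 245 counts on MSA-DA, against 451, 451 and 467 on MSA-ZW. This made it 1.75-fold lower (15.3 ± 0.197 against 26.8 ± 1.06 CPM, edgeR adjusted p = 1.76e-09), with no overlap between gels.

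Itga5, the alpha subunit of the classical fibronectin receptor, was 1.28-fold lower (67.9 ± 3.24 against 86.5 ± 3.41 CPM, edgeR adjusted p = 5.04e-07). Itgav, the alpha v subunit, was 1.19-fold lower (105 ± 4.03 against 125 ± 6.87 CPM, edgeR adjusted p = 2.89e-05). Lrp1, an endocytic receptor that takes up surface transglutaminase, was 1.13-fold lower (747 ± 28.5 against 846 ± 62.9 CPM, edgeR adjusted p = 0.000231), although its groups overlapped and DESeq2 did not call it (adjusted p = 0.0692). The 3 integrin subunits that fell did so by unequal amounts, Itgb5 by the most of the 7 tested partners.

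Itgb1, the beta subunit that joins Itga5 in the fibronectin receptor, stood at 281 ± 0.901 CPM on MSA-DA and 273 ± 2.54 on MSA-ZW (log2 difference 0.04, SE 0.03, edgeR adjusted p = 0.339). Sdc4, a heparan sulphate proteoglycan that binds the enzyme together with fibronectin, was 1.09-fold higher (edgeR adjusted p = 0.0492), a call that was lost in each of the 11 other fits (adjusted p of 0.0519 to 0.191). Mfge8, a bridge between apoptotic cells and alpha v integrins, stood at 73.0 ± 2.53 against 77.6 ± 2.72 CPM (edgeR adjusted p = 0.195). Itgb3, the other integrin partner described in phagocytosis, had too few reads to be tested, with 3, 7 and 4 counts on MSA-DA, against 12, 15 and 10 on MSA-ZW. Sdc2, Adgrg1 and Pdgfrb were not tested either, with 0 to 4 counts per library.

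Genes of apoptotic cell uptake, a process in which tissue transglutaminase takes part, changed in both directions with more falls than rises. Of 17 listed genes 11 were tested, of which 5 fell, 1 rose and 5 did not pass, with a median log2 difference of -0.09. This is 45.5% lower and 9.09% higher, where 6.5% and 6.92% of all tested genes were. Lrp1 and Itgav, described above, are 2 of the 5. Cd36, a scavenger receptor for oxidised lipids and apoptotic cells, had 249, 335 and 248 counts on MSA-DA, against 450, 473 and 499 on MSA-ZW, and was 1.62-fold lower (17.2 ± 1.31 against 27.8 ± 0.967 CPM, edgeR adjusted p = 4.33e-08).

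Axl, a receptor tyrosine kinase for phosphatidylserine bridges, was 1.32-fold lower (11.1 ± 1.2 against 14.7 ± 0.458 CPM, edgeR adjusted p = 0.00429). Its ligand gene Gas6 was 1.32-fold higher (11 ± 1.02 against 8.34 ± 0.418 CPM, edgeR adjusted p = 0.0115). The receptor and the ligand thus moved in opposite directions. The scavenger receptor Stab1 was 1.21-fold lower (edgeR adjusted p = 0.0335). The calls of Gas6 and Stab1 were lost with DESeq2 (adjusted p of 0.0544 and 0.104) and, in edgeR, when MSA-DA replicate 2 was left out (adjusted p of 0.0831 and 0.149). Gas6 also lost its call without MSA-DA replicate 3 (0.061), and Stab1 without MSA-ZW replicate 2 (0.113), without MSA-DA replicate 1 (0.0991) and with no filter on low counts (0.0581).

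The engulfment genes Elmo1, Dock1 and Rac1, which act on the actin cytoskeleton downstream of integrins, had log2 differences of -0.02, 0.01 and -0.01 with standard errors of 0.04, 0.06 and 0.03, and none passed (edgeR adjusted p of 0.852, 0.942 and 0.897). Mertk, a main efferocytosis receptor of tissue macrophages, had 1 to 3 counts per library and Timd4 had 0. In the deposited gene ontology column, 18 tested genes other than Tgm2 carry the term for apoptotic cell clearance, and 3 of them fell (16.7%) and 1 rose (5.56%). The term for focal adhesions, which Tgm2 also carries, holds 195 other tested genes, of which 30 fell (15.4%) and 11 rose (5.64%). Over all tested genes 6.5% fell and 6.92% rose.

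Among proteins that set the activity of the enzyme or its release, the called genes were higher on MSA-DA, by 1.12-fold at most. Of 7 listed genes 5 were tested, of which 2 rose, 0 fell and 3 did not pass, so 40% rose against 6.92% of all tested genes. Pdia3, a disulphide isomerase that can inactivate tissue transglutaminase by oxidation, was 1.06-fold higher (1889 ± 15.5 against 1789 ± 14.0 CPM, edgeR adjusted p = 0.00462). Txn1, the thioredoxin that reactivates the enzyme, stood at 328 ± 5.06 against 318 ± 10.4 CPM (edgeR adjusted p = 0.35), and its reductase gene Txnrd1 was 1.12-fold higher (667 ± 5.74 against 597 ± 11.4 CPM, edgeR adjusted p = 1.45e-05). P2rx7, an ATP-gated channel linked to release of the enzyme from macrophages, stood at 32.0 ± 3.68 against 33 ± 1.92 CPM (edgeR adjusted p = 0.741).

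Most genes of extracellular substrates had too few reads to be tested in these cells. Of 12 listed, 1 was tested: Spp1, the gene of osteopontin, which was 1.12-fold higher on MSA-DA, at 7034 ± 52.6 against 6277 ± 57.7 CPM (edgeR adjusted p = 9.47e-11). Fn1, the gene of fibronectin, had 1 and 2 counts in MSA-DA replicates 1 and 2 and 0 in the other 4 libraries. The fibrinogen chain genes Fga and Fgg had 0 counts throughout and Fgb had 1 count in total. Intracellular substrates were all tested, and 2 of 9 fell (22.2%, against 6.5% of all tested genes) and 0 rose. These were beta-actin, at 1.10-fold lower, and the glycolytic enzyme Eno1, at 1.06-fold lower (edgeR adjusted p = 0.0127). Eno1 no longer passed when MSA-ZW replicate 3 was left out (edgeR adjusted p = 0.0542), nor without MSA-DA replicate 2 (0.0951) or replicate 3 (0.109).

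Among receptors and transcription factors known to act on Tgm2, 20 of 21 listed genes were tested, of which 3 fell, 2 rose and 15 did not pass. The share that fell was 15% and the share that rose 10%, against 6.5% and 6.92% of all tested genes, and the median log2 difference was 0.0034. In the TGF-beta pathway, which induces Tgm2 in many cells, the signal transducer Smad3 was 1.18-fold lower (35.1 ± 1.52 against 41.4 ± 0.854 CPM, edgeR adjusted p = 0.00452). The receptor genes did not pass: Tgfbr1 stood at 26.6 ± 1.02 against 30.2 ± 1.21 CPM (edgeR adjusted p = 0.0602, and 0.0483 without MSA-ZW replicate 3) and Tgfbr2 at 201 ± 5.50 against 194 ± 3.76 CPM (edgeR adjusted p = 0.309).

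Retinoic acid is a classical inducer of Tgm2. The receptor gene Rarb, which is itself induced by retinoic acid, was 1.14-fold higher on MSA-DA, at 55.6 ± 3.24 against 48.6 ± 2.66 CPM (edgeR adjusted p = 0.0164). Its call was lost with DESeq2 (adjusted p = 0.052) and when any of 4 libraries was left out, MSA-ZW replicate 1 (edgeR adjusted p = 0.083) or 2 (0.0824) and MSA-DA replicate 1 (0.123) or 3 (0.059). Rara stood at 15.0 ± 1.86 against 15.6 ± 1.10 CPM (edgeR adjusted p = 0.719), and the partner receptor gene Rxra had only 5 to 14 counts per library. Of 13 listed genes of retinoid metabolism and response 4 were tested, and Rarb was the 1 that passed (25% higher, against 6.92% of all tested genes). The share that fell was 0%, against 6.5% of all tested genes. With 4 genes tested these shares say little, and a part of retinoic acid in the difference of Tgm2 was not tested.

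Of the inflammatory factors, Nfkb1 was 1.09-fold lower (93.4 ± 3.19 against 102 ± 1.16 CPM, edgeR adjusted p = 0.032), and Rela stood at 31.6 ± 2.77 against 33.5 ± 1.31 CPM (edgeR adjusted p = 0.435). Nfkb1 lost its call with DESeq2 (adjusted p = 0.0898) and without MSA-ZW replicate 1 (0.0638), MSA-ZW replicate 3 (0.0602), MSA-DA replicate 1 (0.164) or MSA-DA replicate 2 (0.09). Hif1a, the oxygen-sensing factor, was 1.12-fold higher (623 ± 25.3 against 555 ± 11.7 CPM, edgeR adjusted p = 4.00e-05). The largest fold among the called genes of the regulator list was 1.48, for Il4ra. Of those not called, Adora2a was 2.52-fold higher (edgeR adjusted p = 0.0507) and Smad7 1.65-fold lower (edgeR adjusted p = 0.159) on MSA-DA. Both had few reads, at a mean of 0.706 and 1.40 CPM. What a change in a regulator transcript does to Tgm2 was not tested.

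Interleukin 4 raises Tgm2 in macrophages, where the enzyme is used as a marker of alternative activation. The interleukin 4 receptor gene Il4ra was 1.48-fold lower (2.66 ± 0.344 against 3.96 ± 0.304 CPM, edgeR adjusted p = 0.0435). That call was lost without each of the 6 libraries in turn (edgeR adjusted p of 0.0522 to 0.149) and with no filter on low counts (0.0513), and DESeq2 gave no adjusted p for this gene. Its signal transducer Stat6 stood at 159 ± 1.98 against 169 ± 2.60 CPM (edgeR adjusted p = 0.0919).

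Of 13 listed genes of alternative activation 5 were tested and 1 fell (20%, against 6.5% of all tested genes). This was Arg1, the arginase, with 45, 48 and 57 counts on MSA-DA, against 189, 175 and 208 on MSA-ZW, or 3.59-fold lower (edgeR adjusted p = 4.30e-12). Per length, Arg1 was at a mean of 5.02 FPKM on MSA-ZW and 1.40 FPKM on MSA-DA, below Tgm2 on each gel. Chil3 and Retnla had 0 counts, and Mrc1 and Cd163 had at most 11 counts in any library. Adora2a, the adenosine receptor that can raise Tgm2 in macrophages engulfing apoptotic cells, had 18, 12 and 18 counts on MSA-DA, against 2, 11 and 7 on MSA-ZW (edgeR adjusted p = 0.0507, and 0.0223 to 0.0479 in the 4 fits that called it higher).

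**Figure D5:**
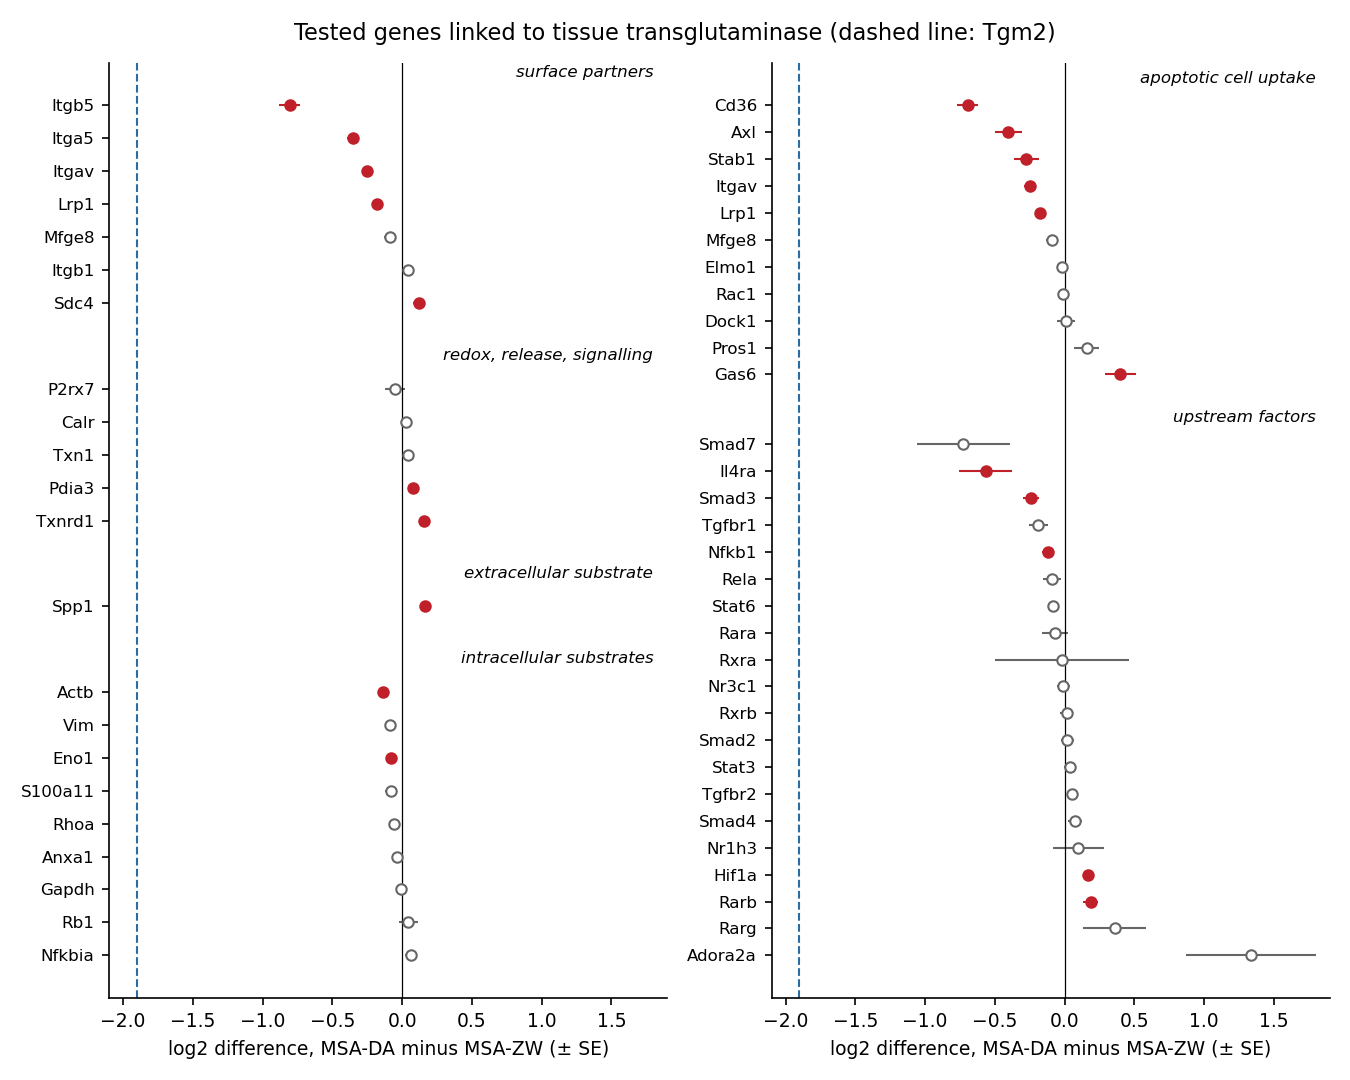
Log2 difference (MSA-DA minus MSA-ZW, with standard error) of the tested genes linked to tissue transglutaminase, by group. Filled red points passed at an edgeR adjusted p below 0.05 and open points did not. The dashed line is Tgm2 at -1.90, and the nearest called gene among the groups drawn is Itgb5 at -0.81. The alternative activation genes, with Arg1 at -1.85, are not drawn.

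The libraries carried the markers of the labelled cell type. Of 8 macrophage markers 7 were tested, and Mertk was the exception. Their summed level was 2510 to 2556 FPKM on MSA-ZW and 2083.5 to 2121 FPKM on MSA-DA, so the sum was lower on MSA-DA, as Tgm2 was. Lyz2, the most abundant of them, stood at a mean of 1743 FPKM on MSA-ZW and 1339 FPKM on MSA-DA. The 7 tested markers moved in both directions, with a median log2 difference of 0.04. The lysozyme gene Lyz2, the growth factor receptor gene Csf1r and the IgG receptor gene Fcgr1 fell (42.9%, against 6.5% of all tested genes). The integrin gene Itgam rose (14.3%, against 6.92% of all tested genes). The part of these markers in the difference of Tgm2 was not tested. The 10 markers of fibroblasts, endothelium, lymphocytes, epithelium and dendritic cells summed to 0.19 to 0.41 FPKM on MSA-ZW and 0.13 to 0.18 FPKM on MSA-DA, with Epcam at 0 and Cd3e, Cd79a, Col1a1, Col1a2, Krt8 and Flt3 at 0 to 2 counts per library. The other 3 had more reads: the endothelial gene Cdh5 had 9, 11 and 6 counts on MSA-DA, against 22, 14 and 6 on MSA-ZW, Pecam1 had 0, 1 and 3 against 6, 7 and 3, and the fibroblast gene Pdgfra had 1 to 6 per library. The part of these cell types in the difference of Tgm2 was not tested. In such bulk samples, fewer cells with the transcript and less transcript per cell cannot be told apart.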

How the data were processed

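RNA sequencing covered 6 libraries, grouped by title, which also numbers them 1 to 3 per gel. Per the labels, libraries were made from 1.3 µg of total RNA extracted with Trizol. The submitters' processing notes name bcl2fastq 2.20.0.422, cutadapt 1.9.1, HISAT2 2.2.1 and the build GRCm39. Not given in the sources used here: counter, strand, annotation. The authors deposited raw counts and FPKM for every gene, per the file headers; each FPKM equals the count per exonic kilobase and 1000000 library counts to within 0.005.

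Counts were fitted with the edgeR 4.0.16 quasi-likelihood test in R 4.3.3 (TMM, filterByExpr, group as the only term), with Benjamini-Hochberg adjustment over 12467 genes and a threshold of 0.05. Standard errors are the log2 difference over the square root of F. The fit was tested on simulated data. Alternatives were DESeq2 1.42.0, RLE size factors, no filter, a replicate block, leaving out each library and other scales for Tgm2. A fit without mitochondrial and ribosomal-RNA-like loci, the ratio of the extreme libraries and the gene ontology counts were added after seeing the data.

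The gene and the lists were chosen with earlier results of these data known. Named were Tgm2, its family, up to 5 called members per list by size, fixed regulators and partners, the 3 nearest tested genes on each side, the 6 most similar profiles (prior count 0.5) and the 3 neighbours in rank above and below among genes of at least 10 CPM, where 1 lies above. The genes Gm20412, Syt16, Tnnt2, Elmo1, Dock1 and the marker genes were named after their values were seen. A further reference gene is not reported here.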

Additional observations from a re-analysis of the deposited data

How the results depend on the processing

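The log2 difference of Tgm2 stayed between -1.93 and -1.86 over the leave-one-out fits, and was -1.90 with the replicate block, against -1.90 as reported. It moved by more than the spread between replicates only on the log2(FPKM + 1) scale, to -1.75, where the pseudocount shrinks it. Its rank of 7 went to 2848 with no filter on low counts, because genes with a few reads in 1 gel then have large fitted values, to 2 among genes of at least 10 CPM, and to between 3 and 9 when each library was left out. The count of called genes was 1673, and 1077 with DESeq2, 1507 with no filter and 998 to 1651 without 1 library, the lowest without MSA-DA replicate 2 (998) and replicate 3 (1071). Replicate numbers left no clear sign of pairing in the counts. Deviations of same-numbered libraries correlated at 0.0125, 0.0192 and -0.00118, and not every library correlated best with its own number. With so few libraries per gel, these values cannot decide whether the libraries were paired. The replicate block gave 1594 called genes and changed 1 call among the named genes, that of Sdc4.

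Surface partners called higher went from 1 to 0 with RLE size factors, DESeq2, no filter, the replicate block, without mitochondrial and ribosomal-RNA-like loci (an alternative chosen after seeing the data) and without any 1 library (0 to 0). With DESeq2, upstream factors went to 1 lower (Il4ra had no adjusted p there) and 1 higher, retinoid genes to 0 higher, and uptake genes to 3 lower and 0 higher. The ranges without 1 library were 1 to 2 lower and 1 to 3 higher for upstream factors, 1 to 3 lower for intracellular substrates, 0 to 1 higher for retinoid genes, 0 to 1 higher for uptake genes and 0 to 1 lower for neighbours of Tgm2. The cause of these changes was not tested. Depth limits the other transglutaminases, Itgb3 and Adora2a, whose counts are too low to compare levels.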
